A study of Mus musculus with 2 samples.

Results

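The cap'n'collar (CNC) factors, their small MAF partners and the BACH repressors were read in mouse megakaryocytes, the bone marrow and fetal liver cells that shed platelets. The 9 genes Nfe2, Nfe2l1, Nfe2l2, Nfe2l3, Maff, Mafg, Mafk, Bach1 and Bach2 were chosen by name, whatever their level, out of 43346 Ensembl genes, and all 9 were found in the gene tables and the transcript tables. The study has 1 group of 2 libraries of polyadenylated RNA, replicates 1 and 2, from primary megakaryocytes taken at embryonic day 14.5 with males and females pooled. The labels give both libraries the same biosample and donor, which means that part of their spread may be technical, and they leave the health state unknown. The labels name no second condition, no allele and no agent, and with 1 library on each side of every comparison no p-value is given.

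CNC factors are basic leucine zipper proteins that bind DNA as pairs with a small MAF protein. The small MAF proteins have no activation domain of their own, so the partner decides whether the pair activates (NF-E2, NRF1, NRF2, NRF3) or represses (BACH1, BACH2). The pair of p45, the product of Nfe2, with a small MAF is the NF-E2 complex, which mice need to form platelets from megakaryocytes.

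The label of the cells was checked against marker genes. All 10 megakaryocyte markers were above a mean of 1 TPM (counts divided by effective transcript length, scaled to a fixed total in each library). Gp1bb, Gp9 and Itga2b led the list, Gp6 was lowest at 10.93 and 11.79 TPM in replicates 1 and 2, and the sums were 16188 and 22385 TPM. Of the other marker lists, 7 of 10 macrophage genes, 9 of 10 granulocyte genes, 5 of 10 mast cell and basophil genes, 3 of the 9 erythroid genes found and 0 of 10 lymphoid genes reached that mean. Macrophage markers, led by C1qc, C1qb and C1qa, summed to 874 and 229 TPM, and granulocyte markers, led by Prtn3, Mpo and Csf3r, to 862 and 150 TPM. Erythroid markers, led by Epor, Klf1 and Slc4a1, summed to 155.94 and 186.16 TPM, with Epor alone at 142.89 and 173.84. Mast cell and basophil markers, led by Gata2, Prss34 and Hdc, summed to 155.5 and 148.05 TPM, with Gata2 alone at 105.45 and 142.97. Timd4 among the macrophage markers, Rhag among the erythroid, Fcer1a and Mcpt4 among the mast cell, and Cd3d, Cd3e and Rag1 among the lymphoid markers had 0 counts in both libraries. Replicate 1 held 42099208 counts over genes and replicate 2 held 2275920, an 18.5-fold difference in depth. In these bulk libraries fewer cells of a type and less RNA per cell cannot be told apart.

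The 3 small MAF genes are much alike where the protein touches DNA. A stretch of 53 bases in the coding sequence of each, coding bases 172 to 224, lies in the basic region, and 42 of its 53 bases are the same in all 3. It is shown because reads from such a stretch could be hard to assign among the 3 genes. Capitals mark the bases that are identical in all 3, and the letters are those of GENCODE M21 on GRCm38, each within 1 exon.
Maff, chr15:79357556-79357608, plus strand: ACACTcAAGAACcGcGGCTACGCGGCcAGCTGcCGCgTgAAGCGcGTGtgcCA
Mafg, chr11:120629549-120629601, minus strand: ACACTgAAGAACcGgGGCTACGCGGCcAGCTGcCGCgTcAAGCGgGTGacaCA
Mafk, chr5:139800220-139800272, plus strand: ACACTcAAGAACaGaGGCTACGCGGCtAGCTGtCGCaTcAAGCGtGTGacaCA
The differences are spread along the stretch. The longest exact run shared by any pair among the 9 genes' transcripts was 23 bases, between Maff or Mafk and Mafg. Reads longer than that run hold bases that tell the annotated transcripts of these genes apart. Across the 36 pairs of genes the longest shared run ranged from 11 to 23 bases. Over the whole coding sequence, Maff and Mafk were identical at 70.4% of bases, Mafg and Mafk at 68.5%, Maff and Mafg at 63.7%, and Bach1 and Bach2 at 52.0%.

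The other sequences that the results turn on are the starts of Nfe2l1, which encodes NRF1. GENCODE places starts of Nfe2l1 transcripts at the upstream end of the gene and again 5841 bases further into it. The estimated shares of the transcripts from each start differed between the libraries, as given under the transcripts. The 250 bases before each start are shown from RefSeq (GRCm38.p6, minus strand, read 5′ to 3′ along the gene). Capitals mark ATTGG, which is CCAAT on the opposite strand, the element bound by NF-Y.
Upstream start, chr11:96829969-96830218: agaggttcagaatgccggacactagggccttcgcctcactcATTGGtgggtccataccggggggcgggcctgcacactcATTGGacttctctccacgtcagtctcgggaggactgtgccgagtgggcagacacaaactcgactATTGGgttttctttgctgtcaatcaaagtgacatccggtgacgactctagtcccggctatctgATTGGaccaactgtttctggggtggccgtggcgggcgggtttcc
Downstream start, chr11:96824128-96824377: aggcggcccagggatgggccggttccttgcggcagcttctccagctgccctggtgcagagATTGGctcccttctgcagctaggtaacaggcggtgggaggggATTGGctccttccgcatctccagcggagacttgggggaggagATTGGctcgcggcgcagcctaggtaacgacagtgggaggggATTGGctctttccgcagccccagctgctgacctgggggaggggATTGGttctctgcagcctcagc
The upstream stretch holds 4 matches, all on the same strand, 38 to 64 bases apart from start to start. The downstream stretch holds 5, and 1 more lies 29 bases after the start, with the 6 spaced 41 to 51 bases apart. Of 32851 RefSeq windows of 300 bases (250 before and 50 from the start), 37.4% hold at least 1 CCAAT on either strand, 1.06% hold at least 4 and 0.0791%, or 26 windows, hold at least 6. The stretches were 57.6% and 64.8% G or C. RefSeq lists 3 more Nfe2l1 starts, whose windows held 0 matches at 96829502 (the start of Nfe2l1-211), 4 at 96824013 and 2 at 96823931, and the last 2 windows share bases with the downstream stretch. The motif was chosen after the files were seen, so its shares of all windows are given for description only. The match is a description of the letters and does not show that a factor binds there.

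The other promoter windows were searched for letters that these factors and their erythro-megakaryocytic partners are known to bind, on both strands. RefSeq windows were found for 8 of the 9 genes, all but Nfe2, and 14 windows were searched in all. None of the 14 held the NF-E2 element GCTGAGTCA, which 0.454% of all windows hold, or its core TGAGTCA, which 5.20% hold. The antioxidant response element TGACNNNGC, the site of NRF2 with a small MAF, is in 12.4% of all windows. It was in the window of Nfe2l2, 240 bases before the start, and in those of Mafg, Mafk and the first of 3 starts of Maff, 222, 13 and 112 bases before the start. The GATA element AGATAA, in 11.2% of all windows, was found in the same Maff window only. That window, at a start of 79346621, is not the one of Maff-201, which starts at 79347520 and held all counts of Maff. The window at 79347520 had neither element. The 2 quantified Maff transcripts start at 79347520 and 79348064 in GENCODE M21, so use of the start at 79346621 could not be read. Their quantified lengths, 1933 and 1905 bases, differ from the 1958 and 1902 of GENCODE M21, so their starts may differ too. The NF-E2 element contains its core, and read on the opposite strand it also fits the antioxidant pattern, so those searches overlap.

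Nfe2 dominated the family. It stood at 309.17 TPM in replicate 1 and 352.63 in replicate 2, 330.9 ± 30.7 (SD, n = 2), above 95.1% of the 9858 genes with a mean of at least 1 TPM. Mafg, the most abundant small MAF by TPM, was next at 97.63 and 61.81 TPM, 79.7 ± 25.3, above 84.4% of those genes. Most of that level came from the 840-base Mafg-203, at 56.13 and 33.87 TPM from 1551.78 and 43.58 counts. The 4923-base Mafg-201, with 3602.78 and 142.34 counts, was at 19.19 and 16.05 TPM. The place of Mafg above Mafk thus depends on how a model divided shared fragments among the Mafg transcripts. Mean levels differed 4.15-fold between Nfe2 and Mafg, and the 2 libraries of one did not overlap those of the other.

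Below them came 3 genes at similar levels in replicate 1, of which Nfe2l2 was well below the others in replicate 2. Mafk, a small MAF first found as the partner of p45 in erythroid cells, was at 38.67 and 27.30 TPM, 33.0 ± 8.04. Nfe2l1, whose product NRF1 sits in the endoplasmic reticulum membrane until it is released to induce proteasome genes, was at 27.97 and 34.85 TPM, 31.4 ± 4.86. Nfe2l2, whose product NRF2 is the KEAP1-controlled activator of antioxidant genes, was at 32.91 and 12.21 TPM, 22.6 ± 14.6. The ranges of Mafk and Nfe2l1 overlapped, as did those of Nfe2l1 and Nfe2l2, so the order within the 3 is not resolved by these libraries.

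Bach1, the heme-regulated repressor that competes for the same sites, was low and close between the libraries at 6.10 and 6.21 TPM, 6.16 ± 0.078. Maff, the third small MAF, was at 6.28 and 3.92 TPM, 5.10 ± 1.67, and its range overlapped that of Bach1. Both were below the middle of the detected genes, above 39.3% and 35.1% of them.

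The remaining pair was below a mean of 1 TPM. Bach2, best known from B cells, had 88 counts in replicate 1 and 1 count in replicate 2, 0.26 and 0.06 TPM, while the authors' posterior means for it were 0.63 and 6.07 TPM. Nfe2l3, which encodes NRF3, had 0 counts in both, and at 3 counts the upper limits are 0.0318 TPM in the deep library and 0.674 in the shallow one. The upper limit in the shallow library is above the level of Bach2, so the order of the last 2 rests on replicate 1.

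**Figure D1:**
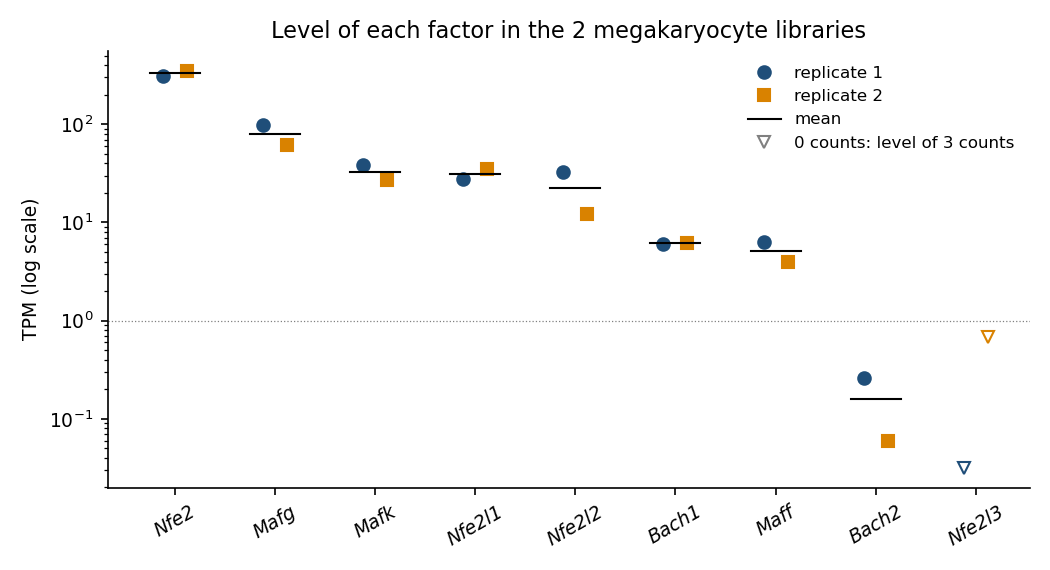
Level of each of the 9 factors in TPM on a log scale, with replicate 1 as circles, replicate 2 as squares and the mean of the 2 libraries as a line. Nfe2 is highest in both libraries at 309.17 and 352.63 TPM, Bach2 is under the dotted line at 1 TPM, and the open triangles give the level of 3 counts for Nfe2l3, which had 0 counts.

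With a mean of at least 1 TPM, 7 of the 9 genes were detected, beside 22.7% of all Ensembl genes, and the same count, 7 of 9, reached 1 TPM in each library, beside 18.1% of all genes. With the authors' posterior means the first count was 8, since Bach2 rose to a mean of 3.35 TPM. The genes lie on 7 chromosomes in the GENCODE M21 annotation of GRCm38. Nfe2 (ENSMUSG00000058794.8, chr15:103248212-103258403, minus strand) and Maff (ENSMUSG00000042622.9, chr15:79346621-79359076, plus) share chromosome 15. Nfe2l1 (ENSMUSG00000038615.13, chr11:96817414-96829968, minus) and Mafg (ENSMUSG00000051510.9, chr11:120625117-120633600, minus) share chromosome 11. Nfe2l2 is ENSMUSG00000015839.6 at chr2:75675513-75704641 (minus), Nfe2l3 is ENSMUSG00000029832.12 at chr6:51432670-51458768 (plus) and Mafk is ENSMUSG00000018143.6 at chr5:139791513-139802653 (plus). Bach1 is ENSMUSG00000025612.5 at chr16:87698945-87733346 (plus) and Bach2 is ENSMUSG00000040270.12 at chr4:32238804-32586108 (plus).

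Neighbouring genes overlap some of them. Mafg shares 124 bases with Sirt7 on the same strand, and Sirt7 was itself at 267 and 283 TPM, so reads of the shared bases could fall to either. Mafk shares 169 bases with Tmem184a on the opposite strand, which had 63 and 15 counts against 4106 and 137 for Mafk. The antisense gene Bach2os, which overlaps Bach2, had 0 counts in both libraries.

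The balance of partners was described by summing each side. The 6 CNC and BACH genes together were at 376.41 and 405.96 TPM, and Nfe2 made up 82.1% and 86.9% of that sum. Nfe2l1 took 7.43% and 8.58%, Nfe2l2 8.74% and 3.01%, and Bach1 1.62% and 1.53%. The repressors were a small share of the mRNA on this side, with Nfe2 50.7 times the level of Bach1 in replicate 1 and 56.8 times in replicate 2.

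The 3 small MAF genes together were at 142.58 and 93.03 TPM, and their proportions were close between the libraries. Mafg took 68.5% and 66.4%, Mafk 27.1% and 29.3%, and Maff 4.40% and 4.21%. The share of Mafg depends on the same division of fragments among its transcripts. The shares of Mafg, Mafk and Maff had SDs of 1.44, 1.57 and 0.135 percentage points between the libraries. The share of Maff in replicate 2 rests on 13 counts, so its small SD leaves out a large counting error. CNC and BACH mRNA exceeded small MAF mRNA 2.64-fold in replicate 1 and 4.36-fold in replicate 2, and Nfe2 exceeded Mafg 3.17-fold and 5.71-fold. These are ratios of mRNA in TPM, and protein was not measured.

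**Figure D2:**
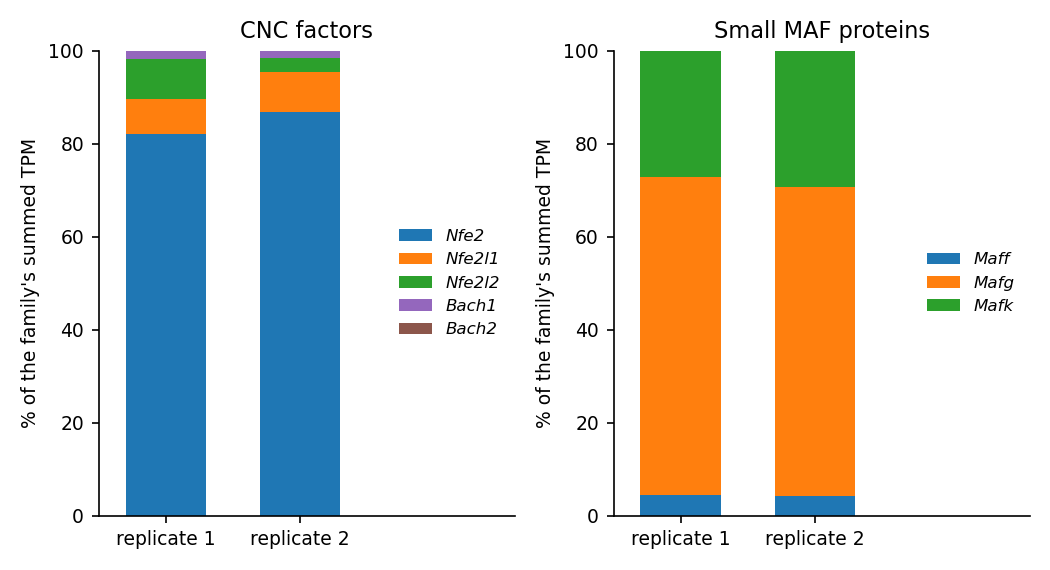
Share of the summed TPM taken by each CNC or BACH gene (left) and each small MAF gene (right), with 1 stacked bar per library. Nfe2 fills 82.1% and 86.9% of the left bars, and Mafg fills 68.5% and 66.4% of the right bars.

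The libraries were then compared gene by gene, as a ratio of replicate 2 to replicate 1 of counts scaled by edgeR's TMM factors, with an exact 95% interval that covers counting error only. Of the 7 factors that averaged 100 or more counts, 0 were higher in replicate 2 by 2-fold or more, beside 13.4% of all genes at that count. Only Nfe2l2 was lower by 2-fold or more, beside 35.6% of all genes. With library totals in place of TMM factors the split over all genes moved from 1095 higher and 2920 lower to 598 higher and 3567 lower, and the members' counts were the same.

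Nfe2l2 had 2659 counts in replicate 1 and 52 in replicate 2, a ratio of 0.460 (0.343 to 0.605). The interval reaches past 0.5, and with DESeq2 size factors the ratio was 0.502, which ends the call. The 7 macrophage markers with enough counts also fell below 0.5 in replicate 2, their median log2 ratio being -3.45 against -0.39 for all genes at that count, and so were 7 of 7 granulocyte markers. Their part in the difference of Nfe2l2 was not tested.

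The other 6 genes stayed within 2-fold. Nfe2 had 18767 and 1015 counts and a ratio of 1.27 (1.19 to 1.36), and Nfe2l1 had 3934 and 203 counts and a ratio of 1.21 (1.05 to 1.40). Mafg, with 5979.82 and 194 counts, had a ratio of 0.763 (0.658 to 0.880), and Mafk, with 4106 and 137, one of 0.785 (0.657 to 0.930). For these 4 genes the intervals leave out 1, which for 1 library a side says only that counting error is smaller than the difference between these libraries. The intervals of Bach1, 1.13 (0.871 to 1.45), and Maff, 0.690 (0.365 to 1.19), include 1. The directions of Nfe2l1 and Bach1 turn with the scaling, to 0.955 and 0.890 with library totals, and the ratio of Nfe2 falls to 1.00. Bach2 was under the count minimum, at 0.267 (0.00669 to 1.53).

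**Figure D3:**
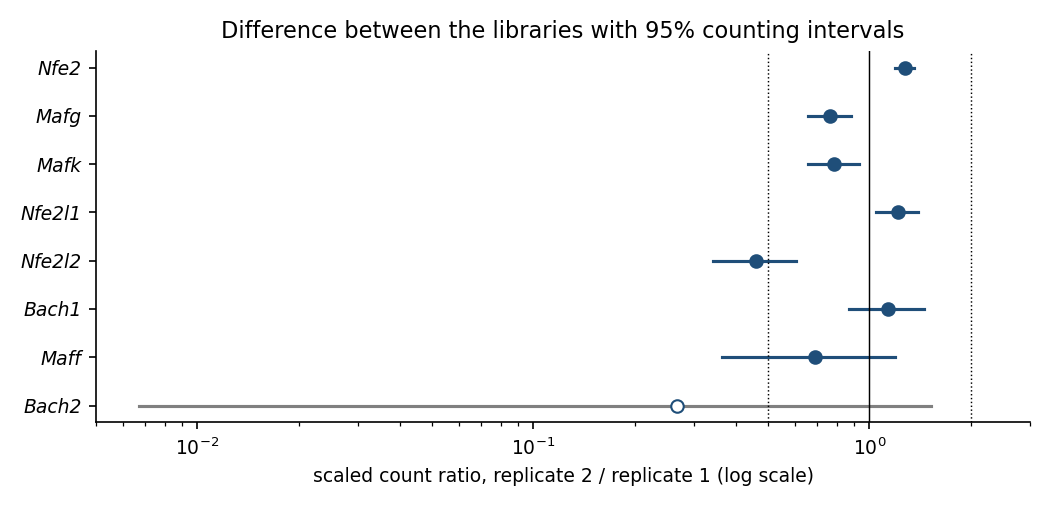
Ratio of scaled counts, replicate 2 over replicate 1, on a log scale for the 8 factors with counts; lines are exact 95% intervals of counting error and dotted lines mark 2-fold. Nfe2l2 at 0.460 is the only filled point beyond the dotted lines, and the open point of Bach2 rests on 88 counts and 1 count.

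The transcript tables list 47 annotated transcripts for the 9 genes, of which 21 had counts in replicate 1 and 14 in replicate 2. Where a gene had 2 or more annotated transcripts and averaged 5 TPM or more, the most abundant transcript was the same in both libraries for 7 of 7 of these factors, beside 66.2% of all such genes. Transcript values are estimates in which shared fragments are divided by a model, and intervals on them cover counting error only.

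Nfe2 was made almost wholly as 1 form. Nfe2-201, which encodes 373 codons, took 98.2% of the gene's TPM in replicate 1 and 100% in replicate 2. Nfe2-209, with 108 annotated coding codons, took 1.48% in replicate 1 and had 0 counts in replicate 2. Mafk-201 took 98.8% and 100%, and Bach1-201 and Maff-201 took 100% in both libraries. The 88 counts of Bach2 in replicate 1 all fell to Bach2-202, and the 1 count in replicate 2 to Bach2-207.

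Nfe2l1 was read mostly as transcripts that start inside the gene. Nfe2l1-212, which starts at 96824127 on chromosome 11 and encodes 453 codons, took 59.6% of the gene's TPM in replicate 1 and 87.9% in replicate 2. Nfe2l1-201, which starts at 96829968 and encodes 741 codons, took 29.4% and 2.07%. The coding sequence of the shorter form is the end of the longer one and lacks its first 288 codons, and the N-terminal end of NRF1 is known to hold the segment that anchors it in the endoplasmic reticulum membrane.

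Grouped by start, the 6 downstream transcripts held 57.0% of the gene's counts in replicate 1 (exact 95% interval 55.4 to 58.5) and 97.0% in replicate 2 (93.7 to 98.9). The intervals do not overlap. The 4 upstream transcripts had 1692.54 counts in replicate 1 and 6.06 in replicate 2, a scaled ratio of 0.0834 (0.0305 to 0.182), and the downstream ones had 2241.46 and 196.94, a ratio of 2.07 (1.78 to 2.39). The ratio of 1.21 for the whole gene is made of these opposed values. With the authors' posterior means the downstream share was 63.2% and 92.6% of TPM, while Nfe2l1-212 alone was at 37.6% in replicate 2. There Nfe2l1-210, which starts at 96824013 and encodes 583 codons, took 30.5%, and Nfe2l1-205 took 11.8%. How the downstream share divides among coding forms in replicate 2 thus depends on the estimate used. Depth differs between the same libraries, and its part in the shift was not tested.

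Nfe2l2 and Mafg differed in their minor forms. The coding transcript Nfe2l2-201, of 597 codons, took 72.8% and 96.6% of the gene's TPM, and the non-coding Nfe2l2-202 the remaining 27.2% and 3.36%. By counts, Nfe2l2-202 held 17.3% (15.9 to 18.8) in replicate 1 and 1 of 52 counts, or 1.92% (0.0487 to 10.3), in replicate 2. Nfe2l2-201 alone, at 23.96 and 11.80 TPM, differed less between the libraries than the gene as a whole.

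Mafg gave different leading forms on the 2 scales. The 840-base Mafg-203 led by TPM, with 57.5% and 54.8%, while the 4923-base Mafg-201 held most of the counts, 60.2% (59.0 to 61.5) and 73.4% (66.4 to 79.3), and 19.7% and 26.0% of the TPM. Mafg-204 had 788.6 counts in replicate 1, 13.2% of the gene, and 0 of 194 in replicate 2, where 3 counts would be 1.55% and the exact upper limit is 1.88%. Every coding form of Mafg encodes the same 162 codons, so these forms differ outside the coding sequence.

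**Figure D4:**
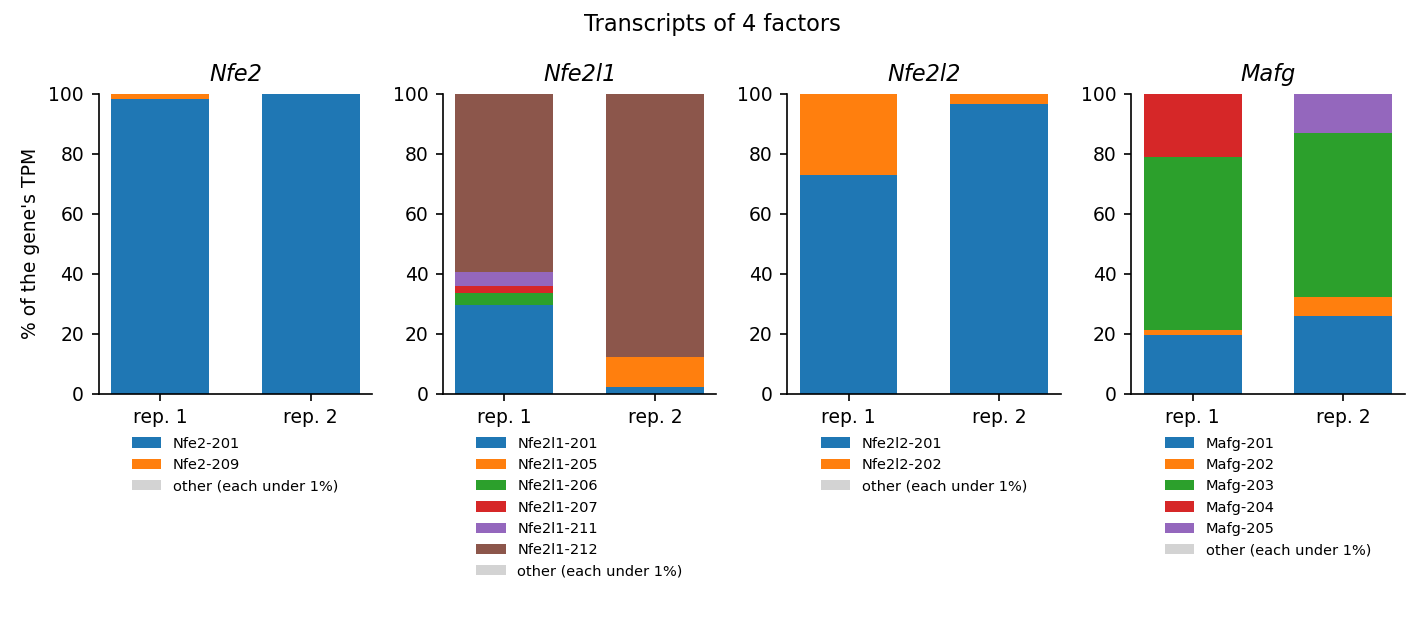
Share of each gene's TPM by transcript for Nfe2, Nfe2l1, Nfe2l2 and Mafg, with 1 stacked bar per library. Nfe2-201 fills 98.2% and 100% of the Nfe2 bars, while Nfe2l1-201 shrinks from 29.4% in replicate 1 to 2.07% in replicate 2 and Nfe2l2-202 from 27.2% to 3.36%.

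Genes around these factors were read from lists. The large MAF factors carry an activation domain that the small ones lack. Maf was at 31.81 and 8.06 TPM, close to Mafk and Nfe2l1 in replicate 1 and below them in replicate 2. It was lower by more than 2-fold, with a ratio of 0.236 (0.185 to 0.298). Maf is known as a macrophage factor, and the macrophage markers given above were lower in the same library, a relation that was not tested. Mafa had 18 and 16 counts, and Nrl, the large MAF of the retina, had 0 in both.

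Genes known as NF-E2 targets in megakaryocytes spanned a wide range. Tbxas1, thromboxane synthase, was at 255.01 and 169.65 TPM and Rab27b, a GTPase of platelet granules, at 100.02 and 103.89. Tubb1, the beta-1 tubulin of platelets, was lower than Nfe2 itself at 31.44 and 11.55 TPM, and Lims1, an adaptor of integrin signalling, was at 6.23 and 2.96. Hsd3b1 (0.50 and 0.32 TPM), Hsd3b6 (0.18 and 1.30) and Casp12 (0.16 and 0) were under a mean of 1 TPM, which leaves 4 of 7 detected. Of the 4 with enough counts, 0 were higher and 1, Tubb1 at a ratio of 0.405 (0.266 to 0.592), was lower by 2-fold or more, beside 13.4% and 35.6% of all genes.

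Targets of NRF2 were detected for 16 of 20 genes. The highest were Gclm, the modifier subunit of glutathione synthesis, at 569 and 1976 TPM, Blvrb, a biliverdin reductase, at 316 and 342, and Txnrd1, thioredoxin reductase, at 74.3 and 170. Ephx1 had 0 counts in both. Of the 16 with enough counts, 2 were higher and 6 lower by 2-fold or more, close to the shares of all genes, 13.4% and 35.6%. Their median log2 ratio was -0.20 beside -0.39 for all genes, with Prdx1, at 0 counts in replicate 2, taken at 3 counts. Gclm and Txnrd1 were the 2 that were higher, at ratios of 3.54 and 2.54. The 6 lower ones, named after their values were seen, were Gclc (0.230), G6pdx (0.249), Hmox1 (0.377), Abcc1 (0.385), Txn1 (0.402) and Prdx1. Nfe2l2 was lower in the same library, so its listed targets went both ways beside it.

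Targets of BACH1 that handle heme and iron spanned a wide range. The ferritin genes Ftl1, at 23624 and 33221 TPM, and Fth1, at 12269 and 3824 TPM, led the list, followed by Gclm, which both lists hold. Ferritin genes have near-identical copies in the genome, so their counts are uncertain. Nqo1, a quinone reductase, was the lowest at 0.41 and 0.77 TPM. Of 7 genes 6 were detected, and of the 6 with enough counts 1 was higher and 2 were lower by 2-fold or more, close to the 13.4% and 35.6% of all genes.

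Regulators of the CNC proteins were all detected, 16 of 16. Syvn1, a ubiquitin ligase of the endoplasmic reticulum that acts on NRF1 and NRF2, was at 124 and 207 TPM, Sqstm1, the autophagy receptor that binds KEAP1, at 150 and 159, and Hcfc1, a transcriptional coregulator, at 56.1 and 167. Ddi2, the protease that cleaves NRF1, was the lowest at 1.67 and 0.44 TPM. Keap1, named here after its values were seen because it holds NRF2 in check, was at 45.7 and 50.4 TPM, above Nfe2l2 in both libraries. Of the 15 with enough counts, 2 were higher and 3 lower by 2-fold or more, beside 13.4% and 35.6% of all genes.

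Proteasome subunits, known targets of NRF1, were detected for 30 of 31 genes and summed to 2210 and 1135 TPM. Psmb4 was at 197 and 183 TPM, Psmb5 at 237 and 116, and Psmc4 at 182 and 125, while Psmc6 was the lowest at 1.61 TPM and 0. Of the 29 with enough counts, 0 were higher and 21 lower by 2-fold or more, beside 13.4% and 35.6% of all genes, and their median log2 ratio was -1.68 beside -0.39 for all genes. The median counts the 2 subunits with 0 counts in replicate 2 at 3 counts.

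**Figure D5:**
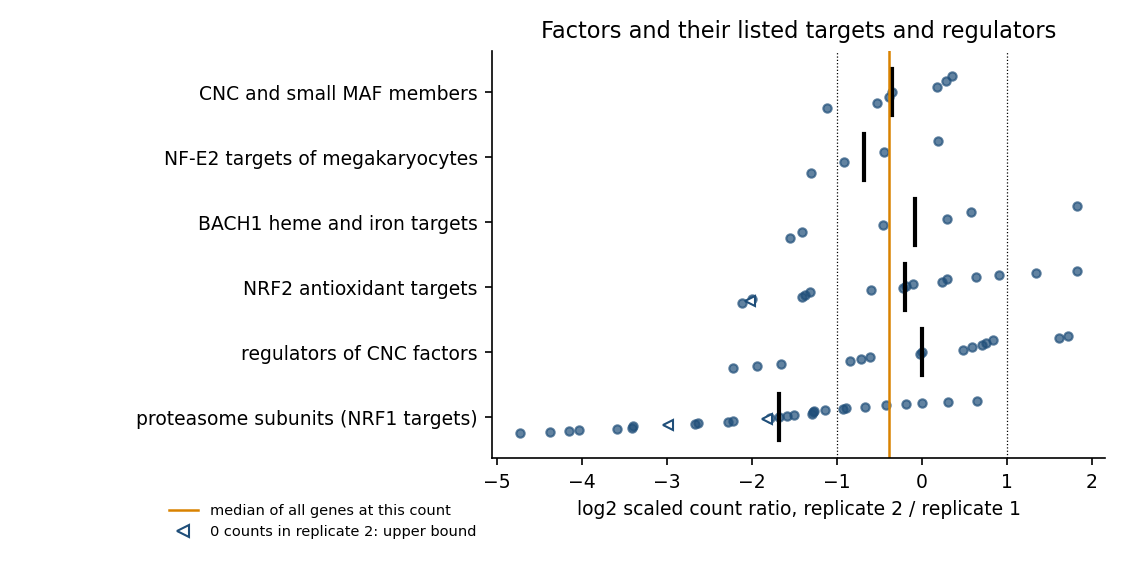
Log2 ratio of scaled counts, replicate 2 over replicate 1, for each gene averaging 100 or more counts in the factors and 5 related lists; black bars are list medians, the vertical solid line is the median of all such genes at -0.39, dotted lines mark 2-fold, and open triangles are upper bounds for genes with 0 counts in replicate 2. The proteasome subunits sit furthest left among the target lists, with a median of -1.68, and the regulators are centred on 0.00.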

How the data were processed

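The expected counts and TPM of genes and transcripts were deposited by the authors as 1 table of each kind per library. The file lists deposited beside them name mm10 and GENCODE M4, and no aligner or quantifier is given in the sources used here. Per the file headers the expected count is an estimate that need not be whole, and TPM is scaled by effective length, with a posterior mean beside it. Rows that name no Ensembl gene were left out.

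Counts were rounded and scaled by TMM over all genes (edgeR 4.0.16, R 4.3.3), with factors of 1.13 and 0.887, and ratios and intervals were computed in Python 3.11.15 with scipy 1.17.1. A gene was detected at a mean of 1 TPM, and a ratio was called past 2-fold at a mean count of 100. In replicate 1, 3 counts are 0.0713 CPM, and in replicate 2 they are 1.32 CPM. DESeq2 1.42.0 size factors, total counts, other count minimums and posterior means were alternatives. Ratios and intervals were tested on simulated data.

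Symbols and positions came from GENCODE M21 on GRCm38, matched by identifier for 42462 of 43346 genes, and promoter windows from RefSeq. The members and lists were chosen with earlier results of these data known, and the motifs after the files were seen. The naming rule was all members, the large MAF factors and NF-E2 targets, and the 3 highest and the lowest gene of each other list by mean TPM. Some listed genes are not reported here.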

Additional observations from a re-analysis of the deposited data

How the results depend on the processing

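Between the libraries 1 member, Nfe2l2, was past 2-fold. The count was 0 with DESeq2 size factors, 2 with a mean count of at least 10 and 2 with no count minimum and a prior count of 0.5, where Bach2 (88 counts and 1) joins Nfe2l2. It was 1 with total counts, with the ratio of deposited TPM and with TMM factors from genes averaging 10 or more counts, the last chosen after seeing the data. The ratio of Nfe2l2 ranged from 0.362 with total counts to 0.502 with DESeq2 size factors. The posterior means moved 4 levels by more than the spread between the libraries: Nfe2 to 281 TPM, Bach1 to 5.85, Bach2 to 3.35 and Nfe2l3 to 0.565, the last 2 from 1 count or none in replicate 2. The other alternatives run moved counts by less than 1.5 times and levels by less than the spread between the libraries. Over all genes, a mean count of at least 10 gave 1751 higher and 5207 lower, and no minimum gave 3339 and 6985. No paired analysis was possible because the study has 1 group. Depth limits replicate 2 most: its 52 counts of Nfe2l2 and 13 of Maff set the width of their intervals, and a gene at 0 counts there is not shown to be absent.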

Other observations

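Mafa, a large MAF factor best known from pancreatic beta cells, had 18 counts in replicate 1 and 16 in replicate 2, although replicate 2 was 18.5-fold shallower. Its level was 0.49 and 9.24 TPM, and the scaled ratio was 20.9 (exact 95% interval 9.97 to 43.4, counting error only). Its mean count of 17 is below the minimum used for calls. Tmem184a, which lies antisense to the edge of Mafk, showed the same direction, with 63 and 15 counts and 4.44 and 27.85 TPM. Tmem184a is below that minimum as well. With no count minimum and a prior count of 0.5, 3339 of 16120 genes were higher and 6985 lower in replicate 2 by 2-fold or more. Both genes, Mafa and Tmem184a, were singled out after their values were seen.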
